A study of Saturnispora dispora and Saturnispora hagleri and Saturnispora mendoncae with 16 samples.

Results

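In *Sat. mendoncae* (Smen), 81 orthogroups had lower mRNA levels than in each of 3 other *Saturnispora* yeasts, while those 3 species lay close to each other. An orthogroup is a set of genes that OrthoFinder assigned to a common ancestral gene. The 81 were chosen from a table of 5029 orthogroups, of which 4090 had a number of OG0000250 or above and a value in every species, and 4021 of these had a mean of at least 5 TPM (transcript abundance scaled to a common total in every library) over the 16 libraries. For each species, the mean of log2(TPM + 1) over its 4 libraries was taken. An orthogroup was kept where this mean was at least 1 lower in Smen than in each other species and the means of the other 3 species spanned less than 1. The difference between Smen and the nearest other species is called the gap hereafter. The selection used every expression value of these orthogroups, so their levels are given as a description, without tests.

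The libraries came from 4 biological replicates each of Smen, *Sat. dispora* (Sdis), *Sat. hagleri* (Shag) and *Sat. silvae* (Ssil). All were grown at room temperature in synthetic complete medium with 2% glucose, with shaking at 225 rpm, and were harvested in exponential phase. The labels give no other treatment and no deletion for any species. The study compared species with a rapid extracellular acidification rate (ECAR), Sdis and Shag, with species with a low ECAR, Smen and Ssil, and the low ECAR species were harvested at a later hour than the rapid ECAR species. The labels name no strain, and a difference between species cannot be told apart from a difference between the strains sequenced. Smen and Ssil shared the ECAR class and the harvest time, so the other 3 species held both classes and both harvest times. Whether the cultures of the 4 species were at the same stage of growth was not tested.

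The counts assigned to genes were between 6196684 (Ssil replicate 4) and 13928456 (Smen replicate 2) per library. Shag replicates 3 and 4 stood apart from the rest: over the 4021 orthogroups they deviated from their species mean by an average of 0.380 and 0.320 on the log2(TPM + 1) scale, against 0.0632 to 0.173 in the other 14 libraries. Applied without Shag replicate 3, the selection gave 79 orthogroups, of which 76 were among the 81, and without Shag replicate 4 it gave 86, of which 77 were among the 81.

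Orthologous genes in related species often keep the function of their ancestor while their mRNA levels drift apart, through changes in promoters, in the stability of the mRNA or in the number of gene copies. TPM divides the reads of a gene by its length and by the total of the library. A level is therefore a share of all mRNA counted, and it also depends on where an annotation places the ends of a gene. None of the 81 orthogroups has a gene name in the tables used here, so that they are described by their orthogroup numbers and gene numbers, without functions.

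The mean level of the 81 orthogroups in Smen was between 0.282 and 1455 TPM, with a median of 17.9 TPM. Their median was 71.8 TPM in Sdis, 72.7 TPM in Shag and 65.9 TPM in Ssil. Together they made up 0.368% ± 0.0169 of the TPM of a Smen library, 1.10% ± 0.0237 in Sdis, 1.34% ± 0.214 in Shag and 1.37% ± 0.0279 in Ssil (means ± SD over the 4 replicates of a species). The nearest other species was Sdis for 38 of the 81, Ssil for 24 and Shag for 19, whereas the highest was Shag for 33, Ssil for 31 and Sdis for 17. Over 3913 other orthogroups that met the value filter, the lowest of these 3 species was Sdis for 2526, Ssil for 783 and Shag for 604. The highest was Ssil for 2601, Shag for 714 and Sdis for 598. Sdis was thus most often the lowest of the 3 in both sets. The selection used these values. The gap was at least 1 and under 1.5 for 48 orthogroups, at least 1.5 and under 2 for 17, at least 2 and under 3 for 11 and at least 3 for 5, with a median of 1.36. As a ratio of mean TPM, the lowest other species exceeded Smen by 2.04-fold to 108-fold, with a median of 2.70-fold, and by 10-fold or more for 5 orthogroups. In the plot of gap against span, these 5 lie apart from a dense group just above the threshold.

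**Figure D1:**
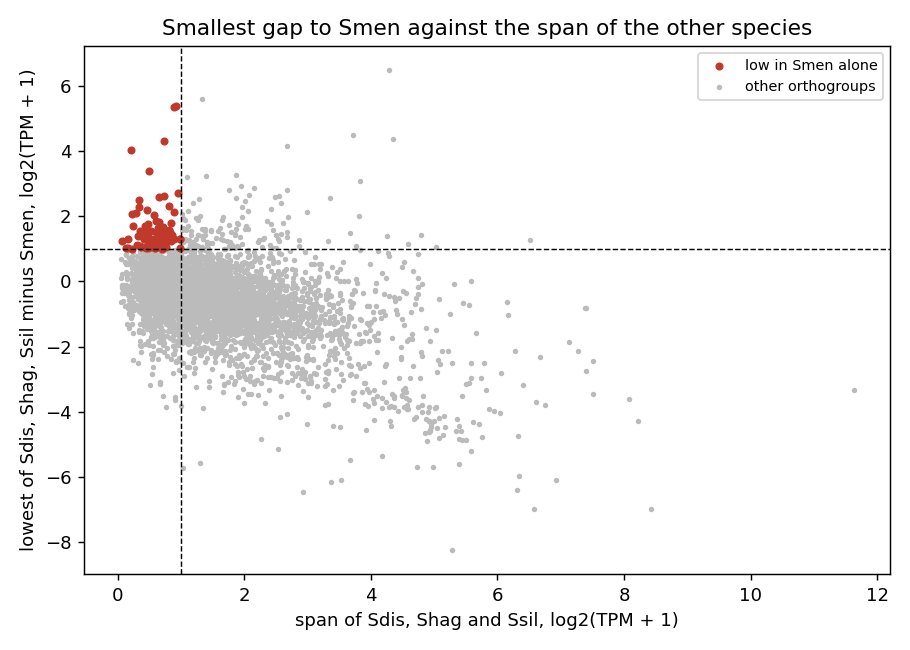
The gap between Smen and the nearest other species (vertical axis, log2(TPM + 1), positive where Smen was lowest) against the span of Sdis, Shag and Ssil (horizontal axis, same scale), with a point for each of the 4021 orthogroups and the dashed lines at the thresholds of 1. The 81 chosen orthogroups (red) fill the upper left field, and 48 of them have a gap under 1.5.

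In limma over the whole table, all 81 were called lower in Smen than in each other species, against a background of 16.2% (687 of the 4232 orthogroups tested). Against single species, the background was 26.4% lower in Smen than in Sdis, 37.3% lower than in Shag and 62.1% lower than in Ssil. The 4 Smen libraries lay below all 12 others for all 81, against a background of 15.1% of the 4021. As the selection used the same contrasts, nothing can be read from the difference between these shares.

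The largest gap, 5.40, was that of OG0000309. It had 10.4, 7.85, 8.94 and 11.3 TPM in Smen, while Sdis had 395, 448, 458 and 479.6 TPM, Shag had 382, 462, 496 and 493 TPM and Ssil had 854, 831, 829 and 844 TPM. The 4 Smen libraries were close to each other, and the nearest other species had 46.2 times their mean. The level was highest in Ssil, whose libraries all lay above those of Sdis and Shag, while the libraries of Sdis and Shag overlapped.

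OG0000287 was at 0.212, 0.849, 0.834 and 0.401 TPM in Smen, while Sdis had 120.3, 126, 74.5 and 107 TPM, Shag had 122, 104, 121 and 117 TPM and Ssil had 60.9, 60.6, 60.5 and 65.3 TPM. The Smen values rested on 2, 11, 10 and 4 counts, near the limit of detection at this depth, so that the ratio of 108 to the mean of Ssil, the nearest species, is imprecise. For OG0002164 the libraries of Smen had 0.262, 0.381, 0.240 and 0.247 TPM, from 6 to 12 counts each, while Sdis had 25.1, 25, 23.8 and 24.4 TPM, Shag had 39.7, 40.9, 35.8 and 50.8 TPM and Ssil had 40.4, 37.3, 42.4 and 38.3 TPM. The lowest other library exceeded the highest Smen library by a wide margin for both orthogroups. On the log2(TPM + 1) scale the gaps were 5.34 and 4.32, which understates the ratios, since 1 is added to values below 1.

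OG0003570 had 4.27, 6.01, 4.22 and 3.26 TPM in Smen, while Sdis had 113, 95.3, 94.1 and 98.2 TPM, Shag had 87.3, 97.7, 67.8 and 106 TPM and Ssil had 80.5, 99.9, 86.9 and 79.3 TPM. Here the other 3 species were nearly level, with a span of 0.21 and overlapping libraries, and the gap was 4.03. In OG0003266 the Smen libraries had 1.98, 2.70, 1.76 and 2.22 TPM, while Sdis had 33.7, 32.9, 31.7 and 29.7 TPM, Shag had 43.4, 45.8, 41.8 and 51.0 TPM and Ssil had 31.4, 28.0, 34.9 and 35.3 TPM. The gap was 3.39, with Sdis and Ssil overlapping and Shag above both in every library.

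The next gaps were from 2.72 to 2.19. OG0000280 averaged 15.5 ± 1.79 TPM in Smen, 107 ± 6.77 TPM in Sdis, 216 ± 66.0 TPM in Shag and 204 ± 21.3 TPM in Ssil (means ± SD, n = 4, as for all means below). OG0001531 had 28.7, 26.1, 23.8 and 21.9 TPM in Smen, while Sdis had 158, 150.1, 169 and 155 TPM, Shag had 209.8, 246, 182 and 271 TPM and Ssil had 276, 246, 272 and 261 TPM. In both, Sdis was the nearest species and lay between Smen and the pair of Shag and Ssil. OG0001536, a close neighbour of OG0001531 in gene number, had 17.1, 15.7, 13.9 and 14.3 TPM in Smen, while Sdis had 93.7, 99.1, 109 and 104 TPM, Shag had 96.1, 84.1, 97.8 and 87.2 TPM and Ssil had 118, 118, 117 and 108 TPM. The gap of OG0001536 was 2.51 and its span 0.34.

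OG0001593 averaged 41.9 ± 5.69 TPM in Smen, 309 ± 32.9 TPM in Sdis, 411 ± 85.0 TPM in Shag and 259 ± 23.7 TPM in Ssil. OG0003806 averaged 72.7 ± 4.27 TPM in Smen, 365 ± 19.5 TPM in Sdis, 647 ± 128 TPM in Shag and 451 ± 33.2 TPM in Ssil. Shag was the highest of the 4 species for both and also had the largest SD. OG0003912 averaged 28.0 ± 3.08 TPM in Smen, 152 ± 5.30 TPM in Sdis, 174 ± 11.1 TPM in Shag and 139 ± 17.3 TPM in Ssil. OG0000927 was at 8.46, 8.67, 8.43 and 9.27 TPM in Smen, while Sdis had 65.1, 61.2, 53.2 and 51.7 TPM, Shag had 50.2, 86.5, 30.3 and 98.0 TPM and Ssil had 41.2, 45.2, 42.5 and 44.5 TPM. Its Smen libraries were close to each other, while the Shag libraries were widely spread, with replicate 3 the lowest and replicate 4 the highest.

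**Figure D2:**
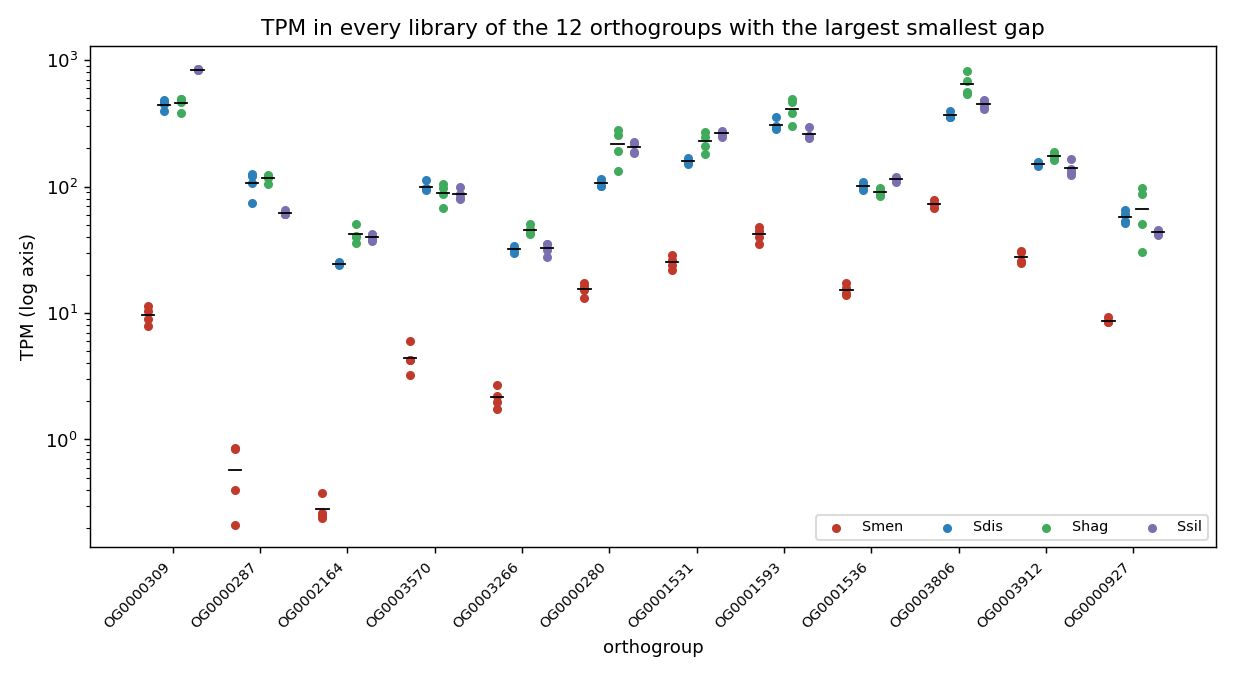
TPM (vertical axis, log scale) in each of the 16 libraries for the 12 orthogroups with the largest gaps, in order of the gap, with a point for each library and a bar for the mean of each species. In every orthogroup the 4 Smen points lie below all others, by the least for OG0000927, where the lowest Shag library had 30.3 TPM and the highest Smen library 9.27 TPM.

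Of the 6 orthogroups with the highest mean TPM, 3 were also among the 12 largest gaps (OG0000309, OG0003806 and OG0001593) and 3 had gaps under 1.5. OG0001533 had the highest level of all 81, with 1331, 1568, 1367 and 1553 TPM in Smen, while Sdis had 2973, 2788, 3044 and 3259 TPM, Shag had 3661, 4949, 2565 and 5700.0 TPM and Ssil had 5163, 4906, 4388 and 4919 TPM. Its gap was 1.05, and it carried more of the summed TPM than any other of the 81 in each species: without it their share of a Smen library was 0.223%, against 0.802% in Sdis, 0.918% in Shag and 0.881% in Ssil. OG0003292 averaged 108 ± 8.74 TPM in Smen, 335 ± 37.2 TPM in Sdis, 225 ± 46.3 TPM in Shag and 289.7 ± 38.8 TPM in Ssil, with a gap of 1.03. OG0000250 averaged 94.1 ± 5.59 TPM in Smen, 237 ± 20.1 TPM in Sdis, 324 ± 18.3 TPM in Shag and 221 ± 29.2 TPM in Ssil, with a gap of 1.22.

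The threshold of 1 cut through a continuous range of gaps. Just inside it were OG0002956 and OG0000355, both at 1.0, and OG0001464 and OG0002643, both at 1.02. OG0002956 averaged 29.5 ± 3.97 TPM in Smen, 70.6 ± 10.9 TPM in Sdis, 66.9 ± 6.86 TPM in Shag and 60.1 ± 7.01 TPM in Ssil. OG0000355 averaged 14 ± 2.40 TPM in Smen, 47.6 ± 7.44 TPM in Sdis, 29.6 ± 7.74 TPM in Shag and 35.7 ± 3.97 TPM in Ssil. Just outside were OG0002777 at 0.99 and OG0003615, OG0002532 and OG0002283 at 0.98. OG0002777 averaged 63.7 TPM in Smen, 128 TPM in Sdis, 138 TPM in Shag and 139 TPM in Ssil, and could be told from those inside by its gap only. The 53 orthogroups that are not described singly had gaps between 1.03 and 2.1, with mean levels from 3.35 to 78.8 TPM in Smen, 11.2 to 274 TPM in Sdis, 11 to 294.5 TPM in Shag and 9.97 to 260.0 TPM in Ssil.

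Membership depended on how the species were put on a common scale. Over the 4021 orthogroups, the median difference of Smen on the log2(TPM + 1) scale was 0.33 against Sdis, -0.06 against Shag and -0.69 against Ssil, whereas over the 81 it was -1.52, -1.83 and -1.73. After scaling of every library to the median ratio, which brought the shifts over all orthogroups to between -0.02 and 0.01, 119 orthogroups met the selection and 33 of the 81 were among them. After quantile normalization 84 met it, of which 23 were among the 81, and with counts scaled only to the library total (CPM) in place of TPM, so that gene length was not used, 106 met it, of which 59 were among the 81. A total of 20 orthogroups met it on all 4 scales, among them OG0002164, OG0000280, OG0001531, OG0001536, OG0002258 and OG0003897. No orthogroup of the 81 changed direction: Smen remained the lowest species on every scale, with smallest gaps of 0.30 after the median ratio, 0.07 after quantile normalization and 0.19 without gene length. The 12 with the largest gaps kept a gap of at least 1.5, 1.16 and 1.53 on these scales, and those of them that were lost, such as OG0000309 after quantile normalization, were lost because the other species then spanned 1 or more. The split of calls over the whole table also moved, with 687 orthogroups lower and 447 higher in Smen than in each other species in TPM, 732 and 678 after the median ratio, and 673 and 627 after quantile normalization.

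The number of genes and their coding length were read from the ratio of the gene counts to the TPM of an orthogroup. TPM divides by the coding length summed over the genes of an orthogroup, so that the following shares are not independent of the selection and are a description only. In 77 of the 81 orthogroups (95.1%) each species had 1 gene, against 3887 of the 3913 other orthogroups that met the value filter and could be tied to genes in all species (99.3%). Smen had more genes than any other species in 3 of the 81 (3.70%), against 9 of the others (0.230%). These 3 were OG0000287, OG0001593 and OG0000250, and the tie of genes to OG0000287 in Smen is uncertain, since it rests on 27 counts over the 4 libraries. In the remaining one, OG0000309, Ssil had a second gene. OG0000309 was thus the only one of the 81 in which Smen had fewer genes than another species.

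In OG0000287, both Smen genes tied to it were near 0: g002579 had 2, 11, 4 and 3 counts in the 4 replicates and g004775 had 0, 0, 6 and 1, whereas the single genes of the other species averaged 597.5 counts in Sdis, 585 in Shag and 249 in Ssil. In OG0001593 the Smen genes g000317 and g000318 have successive numbers. They averaged 136 and 576 counts, against 3040 counts in Sdis, 3718 in Shag and 1757 in Ssil for the single gene of each. In OG0000250, g002386 carried nearly all Smen counts (mean 2658) and g002382 few (mean 119). The Ssil genes of OG0000309 were also unequal, at a mean of 6938 counts for g001199 and 142 for g001222, so that the high level in Ssil came from g001199, while the single Smen gene g003068 had 53, 55, 58 and 61 counts.

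The length of a gene enters TPM directly. The summed coding length in Smen, divided by the mean of the other species, had a median of 1.0 for the 81 and 0.996 for the other orthogroups, and the quartiles of the 81 were 0.987 and 1.02. The ratio was over 1.25 in 5 of the 81 (6.17%), against 83 of the others (2.12%), and under 0.8 in 1 (1.23%), against 120 (3.07%). OG0000287 had 296 codons in Smen over both genes, with the same uncertainty as their number, against 149 in Sdis, 149 in Shag and 154 in Ssil, and OG0003284 had 364 codons in its single Smen gene, against 212 in each other species. OG0001593 had 451 codons in Smen, against 268, 269 and 257 in Sdis, Shag and Ssil, OG0000250 had 787, against 568, 568 and 564, and OG0001533 had 133, against 85, 91 and 86. The shortest relative to the other species were OG0000309, with 160 codons in Smen against 161, 161 and 321 over both Ssil genes, OG0004278, with 149 against 170, 170 and 178, and OG0002956, with 120 against 148, 136 and 117.

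With gene length left out, the gap of OG0003284 was 0.19 in place of 1.06, that of OG0000250 was 0.47 in place of 1.22, and that of OG0001533 was 0.48 in place of 1.05. These 3 did not meet the selection without gene length, but they were not the only ones. OG0003284 and OG0000250 also failed it after the median ratio and after quantile normalization, where gene length is still divided out. OG0001533 met it after the median ratio and failed it after quantile normalization. Without gene length 22 of the 81 were lost, 15 of them by a gap under 1. Among these was OG0002259, with 430 codons in every species, whose gap went from 1.26 to 0.99. OG0003284 averaged 53.9 ± 2.69 TPM in Smen, 113 ± 6.80 TPM in Sdis, 167 ± 32.9 TPM in Shag and 128 ± 11.9 TPM in Ssil, while its counts in Smen were 582, 871.5, 796 and 694, against 1056.5, 919, 761.5 and 823 in Sdis. OG0001593 kept a gap of 1.53 without length and OG0000287 one of 4.09. Whether the longer Smen gene models are true differences or a matter of annotation was not tested.

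**Figure D3:**
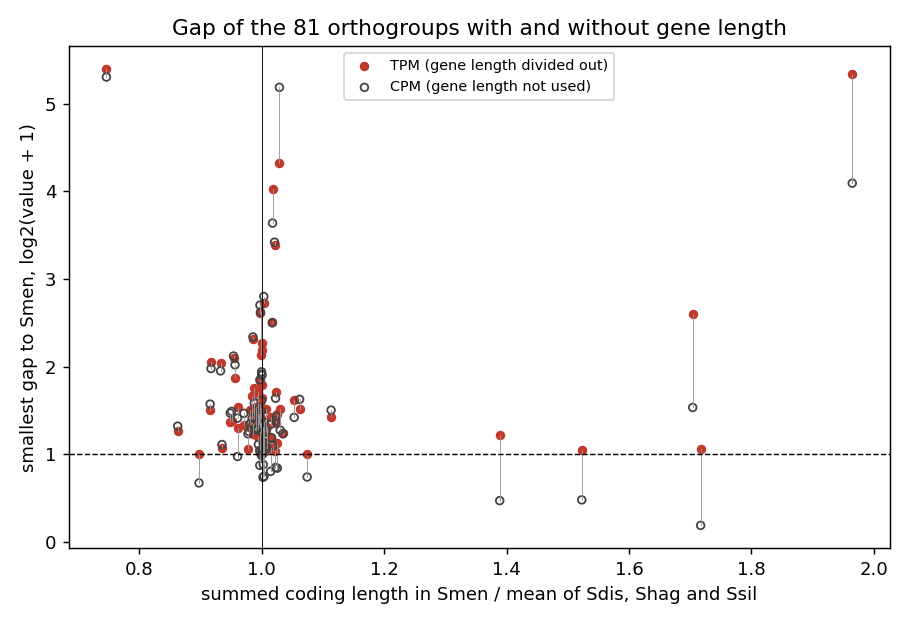
The gap of each of the 81 orthogroups (vertical axis, log2(value + 1)) in TPM (filled red) and in CPM, without gene length (open), joined by a line, against the summed coding length in Smen divided by the mean of Sdis, Shag and Ssil (horizontal axis). Of the 5 orthogroups at ratios over 1.25, each has its open point below its filled one, and 3 of these open points lie below the dashed threshold of 1.

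Many of the 81 had gene numbers close to each other. The gene numbers of the count files stand for the order of gene models in each annotation, without a chromosome or contig. In Smen, 38 of the 81 (46.9%) had another of the 81 within 10 gene numbers, and 949 of the 3913 other orthogroups (24.3%) had one of the 81 within that distance. Within 5 numbers it was 31 (38.3%) against 536 (13.7%), and within 1 number it was 8 (9.88%) against 129 (3.30%). The shares within 10 numbers were 53.1% against 23.2% in Sdis, 42.0% against 23.9% in Shag and 48.1% against 24.1% in Ssil. As the 4 species share much of their gene order, these are not 4 independent observations. A total of 31 orthogroups formed 12 runs, in which each was within 10 numbers of another in all 4 species.

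The most compact run of 4 held OG0002253, OG0002254, OG0002258 and OG0002259, which lay within 7 gene numbers in every species (g002133 to g002139 in Smen). OG0002258 had 13.4, 14.6, 14.7 and 13.4 TPM in Smen, while Sdis had 65.8, 71.7, 55.6 and 57.0 TPM, Shag had 51.3, 47.7, 66.0 and 46.9 TPM and Ssil had 75.2, 75.2, 87.0 and 95.6 TPM. Its neighbour OG0002259 averaged 81.5 ± 4.92 TPM in Smen, 337 ± 17.1 TPM in Sdis, 256 ± 45.1 TPM in Shag and 197 ± 25.5 TPM in Ssil. The order of the other species differed between these neighbours, with Ssil the highest for OG0002258 and the lowest of the 3 for OG0002259. At the other end of the run, OG0002254 averaged 4.34 ± 1.11 TPM in Smen, 23.3 ± 9.12 TPM in Sdis, 21.2 ± 5.16 TPM in Shag and 16.1 ± 1.33 TPM in Ssil, and OG0002253 averaged 21.2 ± 1.90 TPM in Smen, 58.3 ± 3.79 TPM in Sdis, 48.2 ± 11 TPM in Shag and 50.6 ± 7.62 TPM in Ssil. The run was not low throughout: OG0002256, which lies between them and was picked out after its values were seen, was higher in Smen than in Sdis by 2.90, than in Shag by 1.34 and than in Ssil by 1.26 on the log2(TPM + 1) scale.

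OG0002164 and OG0002165 were successive in every species (g000832 and g000833 in Smen), but of unequal gaps. OG0002165 had 31.4, 30.0, 29.2 and 26.4 TPM in Smen, while Sdis had 103, 104, 81.5 and 85.1 TPM, Shag had 139, 168, 97.8 and 194 TPM and Ssil had 110.4, 112, 112 and 105 TPM, a gap of 1.64 beside the 4.32 of OG0002164. OG0003897 and OG0003896 were likewise successive in all 4 species. OG0003897 averaged 1.25 ± 0.245 TPM in Smen, 8.84 ± 0.964 TPM in Sdis, 12.5 ± 1.31 TPM in Shag and 17.1 ± 1.61 TPM in Ssil, a gap of 2.13, and OG0003896 averaged 10.5 ± 1.67 TPM in Smen, 54.7 ± 6.76 TPM in Sdis, 30.2 ± 7.37 TPM in Shag and 36.6 ± 6.64 TPM in Ssil, a gap of 1.43.

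Between the members of the 12 runs lay 42 other orthogroups that met the value filter. Smen was the lowest of the 4 species in 21 of these 42, whereas it was the lowest in 25.3% of all 3994 orthogroups tied to genes. The runs differed in this. In the run of OG0001531, OG0001533 and OG0001536 Smen was the lowest in all 3 orthogroups between them. It was the lowest in 4 of 11 in the run of OG0002763, OG0002770 and OG0002775, and in 0 of 5 between OG0001199 and OG0004375. A wider count, made after the values were seen, took every orthogroup at least 1 lower in Smen than in each other species, whatever the span of these. It held 219 orthogroups (5.45% of those that met the value filter), the 81 and 138 others, and 25 stretches of successive Smen gene numbers, of which 4 had 3 or more orthogroups.

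The longest stretch was of 7 orthogroups, OG0001531 to OG0001537, which are g000244 to g000250 in Smen and lay within 11 gene numbers in Sdis and Shag and 10 in Ssil. Between the 3 chosen ones, OG0001532 averaged 7.70 ± 0.986 TPM in Smen, 23.1 ± 6.34 TPM in Sdis, 56.6 ± 13.4 TPM in Shag and 39.2 ± 3.98 TPM in Ssil. OG0001535 averaged 19.1 ± 3.07 TPM in Smen, 60.3 ± 6.11 TPM in Sdis, 155 ± 25.7 TPM in Shag and 245 ± 11.7 TPM in Ssil. The gaps along the stretch were between 1.05 and 2.61, and OG0001532, OG0001534, OG0001535 and OG0001537 were kept out of the 81 by the span of the other species, from 1.10 to 2.43. OG0001533, OG0001534 and OG0001535, at 133, 479 and 347 codons, also had longer genes in Smen than in each other species. Without gene length the gap of OG0001533 was 0.48, so that the stretch of 7 was not unbroken on that scale.

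**Figure D4:**
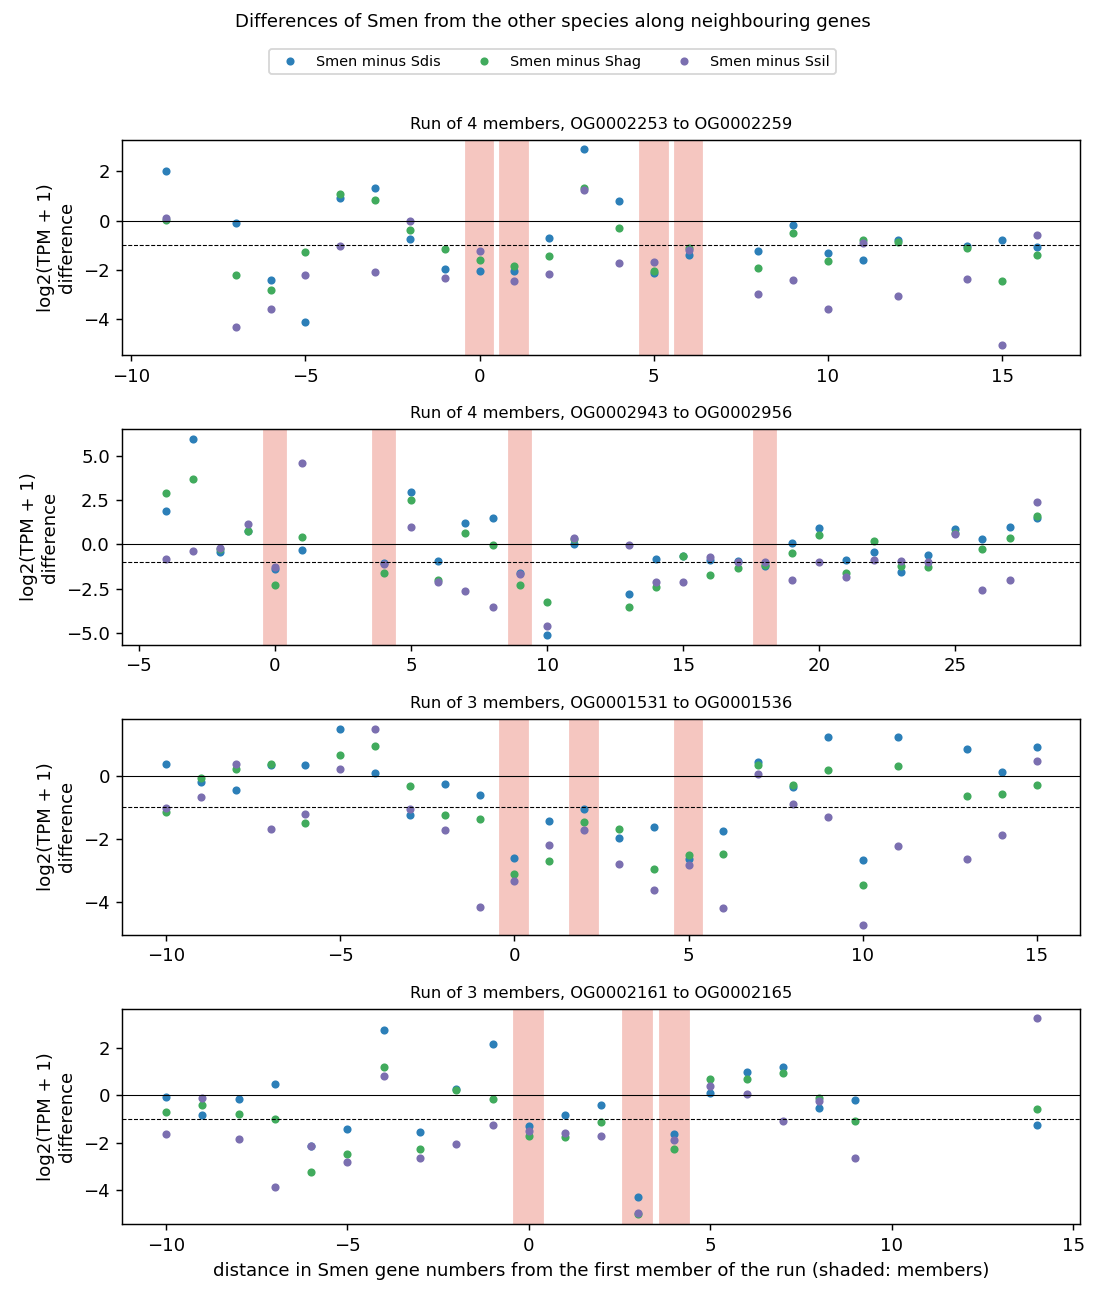
Differences of Smen from Sdis, Shag and Ssil (vertical axes, log2(TPM + 1)) for the orthogroups around 4 runs, by distance in Smen gene numbers from the first chosen orthogroup of the run (horizontal axes), with the chosen orthogroups shaded and a dashed line at -1. Around OG0001531 to OG0001536 the 7 successive orthogroups from 0 to 6 all lie below -1 against each species, whereas the run of OG0002253 to OG0002259 holds OG0002256, higher in Smen than in each other species.

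Glycolysis and alcoholic fermentation, the pathways the study was about, convert glucose to pyruvate and on to ethanol. Of 14 genes listed for hexose uptake, glycolysis, fermentation and the regulator *GAL4*, 10 could be named and 9 had a value in every species. None of the 10 is among the 81. *ADH*, *PFK* and *HXT* could not be chosen, since their orthogroup numbers are below OG0000250, and *TPI* could not, since it lacked a value in a species. In limma, 4 of these 9 were lower in Smen than in each other species (*ADH*, *PFK*, *FBA* and *TDH*) and 0 were higher than in each, beside the background of 16.2% lower. Against single species, 8 of the 9 were lower than in Sdis (background 26.4%), 9 lower than in Shag (37.3%) and 5 lower than in Ssil (62.1%), and 2, *HXT* and *HXK*, were higher than in Ssil (22.1%). After the median ratio, 4 were lower and 4 higher than in Ssil, with *GPM* and *ENO* among the higher. Of the 4232 orthogroups tested, 1769 were lower and 1750 higher than in Ssil on that scale. *ADH*, *PFK* and *FBA* were also called lower than in each species after the median ratio, after quantile normalization and without gene length. *TDH* was not: its difference from Ssil was -0.43 in TPM, but 0.28 after the median ratio, 0 after quantile normalization and -0.16 without gene length, none of the last 3 called. *PFK*, which encodes phosphofructokinase, met both value conditions of the selection in TPM and was left out by its orthogroup number, OG0000052. In TPM it was lower in Smen by 1.44 against Sdis, 1.85 against Shag and 1.54 against Ssil on the log2(TPM + 1) scale (SE 0.09 for each in limma). It was picked out by these same values, so no p-value is given for them. *PFK* missed the gap of 1 on 2 of the other scales, since it differed from Ssil by -0.84 after the median ratio and by -0.64 without gene length. Without gene length it differed by -0.90 from Sdis and by -1.22 from Shag. *HXT* differed from Sdis by -1.64 in TPM and -0.69 without gene length, and from Shag by -1.77 and -0.72. The other listed genes moved less against these 2 species. How far the coding lengths of *PFK* and *HXT* account for their levels in TPM was not tested. For *ADH*, alcohol dehydrogenase, the gap was 1.63 and the span of the other species 1.03, and for *FBA*, the aldolase gene, the gap was 1.31 and the span 1.24.

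The same selection applied to other species and directions gave 66 orthogroups high in Smen alone, 64 low and 31 high in Sdis alone, 14 low and 17 high in Shag alone, and 124 low and 526 high in Ssil alone. These counts are in TPM, where the median difference of Smen from Ssil over all orthogroups was -0.69, and were not repeated on the other scales. The median SD over the libraries of a species, on the log2(TPM + 1) scale, was 0.129 in the 81 and 0.0960 in the other orthogroups for Smen, 0.125 and 0.151 for Sdis, 0.224 and 0.297 for Shag, and 0.111 and 0.0914 for Ssil.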

How the data were processed

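RNA-seq libraries from 16 cultures of 4 species were used. The authors trimmed reads with Trimmomatic 0.30, checked them with FastQC, aligned them with HISAT2 2.1.0 and counted them with HTSeq 2.0.3, splitting pairs that fit several genes. The deposited expected counts per gene can therefore be fractions. The TPM values were computed by the authors with edgeR from counts and gene lengths summed over the genes of an OrthoFinder orthogroup. Genome builds are not given in the sources used here. From 4.10% to 19.0% of counted reads had no gene and were left out. No columns of other series were present (0).

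Genes were tied to orthogroups where count divided by TPM had the same shape over the 4 libraries (largest difference 1e-06) for 1 to 3 genes and the implied length was a whole number of codons to within 0.01. This tied 4550 to 4774 orthogroups per species and all of the 81 in every species. No 2 replicates were alike within sampling noise (chi-square per degree of freedom 4.40 to 333 over 24 pairs).

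limma 3.58.1 in R 4.3.3 (log2(TPM + 1), all 16 libraries, variance trend, Benjamini-Hochberg, adjusted p under 0.05) gave the background over the 4232 orthogroups that averaged 5 TPM or more. Scripts were tested on simulated data. Tables were handled in Python 3.11.15 with pandas 2.3.3, numpy 2.4.6 and scipy 1.17.1. Rounded counts with length offsets were also tested with edgeR 4.0.16 and DESeq2 1.42.0. Alternatives were other pseudocounts, filters, thresholds and scalings, no gene length, a replicate block and leaving out each library. The members, lists and tests were chosen with earlier results of these data known.

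Orthogroups named were the 12 with the largest gaps, the 6 with the highest mean TPM, the 4 just inside and 4 just outside the threshold, those with more than 1 gene in a species, those with successive Smen gene numbers, and the 3 with the largest and 3 with the smallest length ratio. Others were chosen after their values were seen.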

Additional observations from a re-analysis of the deposited data

Results flagged for a closer look

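Of the 128 groups of 4 libraries formed by the named orthogroups and the 4 species, 7 held a library far from the other 3 by Dixon's criterion, where chance gives about 1 in 20. In Smen this was OG0002164, with 0.381 TPM in replicate 2 and 0.240 to 0.262 TPM in the other replicates, which rest on 6 to 12 counts. In Sdis replicate 3, OG0003806 was at 394 TPM, against 353 to 358 TPM in the other replicates, and OG0003912 was at 144 TPM, against 154 to 155 TPM. In Shag, OG0002956 had 56.7 TPM in replicate 2, against 69.3 to 71.5 TPM, and OG0002643 had 224 TPM in replicate 1, against 258 to 265 TPM. In Ssil replicate 4, the library with the fewest counts, OG0000287 was at 65.3 TPM, against 60.5 to 60.9 TPM, and OG0001536 was at 108 TPM, against 117 to 118 TPM. In each of these orthogroups the 4 Smen libraries lay below all others. The order of the other species was not kept: OG0002956 in Shag replicate 2 lay below Ssil replicates 2, 3 and 4, and OG0001536 in Ssil replicate 4 lay below Sdis replicate 3.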

How the results depend on the processing

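The number of orthogroups low in Smen alone was 81 in the selection as applied and 70 to 119 under 2 other pseudocounts, 2 filters and 3 scalings. It was 33 with a difference of at least 1.5 and 30 with a span under 0.5. Leaving out each library in turn gave 78 to 93, with at least 76 of the 81 among them. The number called lower in Smen than in each other species in limma was 687, 633 to 722 without each library in turn, 236 with a difference of at least 1, 728 in edgeR and 739 in DESeq2. Against single species, a difference of at least 1 gave 469 lower than in Sdis, 672 than in Shag and 1697 than in Ssil. Lower than in Sdis were 1118, but 1715 after the median ratio and 1711 in DESeq2. Lower than in each species were 80 of the 81 after the median ratio, without gene length, in edgeR and in DESeq2, and 76 after quantile normalization. Over all orthogroups tested, it was 732 of 4232 after the median ratio, 685 of 4169 without gene length and 673 of 4232 after quantile normalization. In edgeR it was 728 of 4169 and in DESeq2 739 of 4169. As the selection used the same libraries, nothing can be read from the difference between these counts. None of the gaps of named orthogroups changed sign. By more than the spread between replicates, 0 of 512 moved without a library and 84 of 160 moved under the pseudocounts, scalings and no gene length.

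With the replicate number as a block, 677 were lower in Smen than in each. Deviations of replicates of the same number in different species gave 24 correlations from -0.33 to 0.39, with a median of -0.01 and 8 over 0.1. Replicates of different number were not compared in this way, so that whether the numbers pair the samples was not tested. Depth limits OG0000287 and OG0002164, whose Smen libraries hold 2 to 12 counts. A count under 50 in a Smen library was found for 6 of the 81.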
